A study of Homo sapiens with 16 samples.

Results

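The genes described here are the 7 that encode inhibitors of cyclin-dependent kinases (CDKs), together with MTAP. CDKN1A, CDKN1B and CDKN1C form the CIP/KIP family, CDKN2A, CDKN2B, CDKN2C and CDKN2D form the INK4 family, and MTAP is the neighbour of CDKN2A on the short arm of chromosome 9, in band 9p21. They were taken by symbol and are 8 of the 35993 genes in the count table. All 8 were among the 21297 genes tested, CDKN2A, CDKN2B and MTAP through the cell lines in which they were counted.

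INK4 proteins bind CDK4 and CDK6 and keep them from pairing with D-type cyclins, so that RB stays active and holds E2F target genes down. CIP/KIP proteins bind whole cyclin and CDK complexes, above all those of CDK2. Loss of 9p21, which takes CDKN2A, CDKN2B and often MTAP together, is a frequent event in bladder cancer, and CDKN1A is widely known as a gene that rises when histone deacetylases are inhibited.

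The samples are total RNA of 4 established lines of human bladder cancer, TCCSUP, RT112, J82 and 253J, which the labels all give as wild type (WT). Cells were exposed for 48 h to CM-1758, a histone deacetylase (HDAC) inhibitor, at the IC50 of each cell line, or to 0.01% DMSO, which the labels give as vehicle control, whereas the study's description of its expression plots calls the controls untreated. Each of the 8 groups held 2 libraries, described as independent experiments. TCCSUP was grown in another medium than the other lines, so that line and medium cannot be told apart, and since CM-1758 was dosed by the IC50 of each line, line and dose cannot be told apart either.

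The libraries held 22506431 to 32537104 counts, and the 2 libraries of a group correlated at 0.983 to 0.991 (Pearson's r of log2 CPM across genes). No pair of replicate libraries agreed within sampling noise. KRT8 and KRT18, keratins of simple epithelia, were counted in all groups at a group mean of 47.2 CPM (counts scaled to a common library size) or more, whereas EPCAM was at 0.467 CPM in 253J controls and 216 CPM in RT112 controls. Summed over 15 epithelial markers, the level was 3187 and 4338 CPM in 253J controls, 5969 and 8102 in J82 controls, 8199 and 8600 in RT112 controls, and 1329 and 1451 in TCCSUP controls. With CM-1758 this sum was 1878 and 2370 CPM in 253J, 6970 and 7890 in J82, 6284 and 7067 in RT112, and 516 and 598 in TCCSUP. Of these markers, 4 rose and 3 fell in 253J, 5 and 1 in J82, 2 and 4 in RT112, and 5 and 5 in TCCSUP. A set of 13 leukocyte, endothelial and fibroblast markers summed to 2990 and 3136 CPM in TCCSUP controls, nearly all from collagens, LUM and DCN, and to 352 and 388 CPM with CM-1758. In the other lines it went from 30.4 and 31.0 CPM to 21.2 and 23.2 in 253J, from 3096 and 3286 to 1911 and 1973 in J82, and from 1342 and 1375 to 846 and 916 in RT112. Of the 11 tested, 5 rose and 1 fell in 253J, 3 and 1 in J82, 5 and 1 in RT112, and 2 and 6 in TCCSUP. From 1 to 7 of the epithelial markers and 0 to 11 of the others were at 0 in a library. PTPRC, which marks leukocytes, was at 0 in 253J controls and at most 9.58 CPM in any group. The part of these shifts in the results was not tested. In bulk RNA a smaller share of cells with a transcript and less of it per cell cannot be told apart.

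CM-1758 raised 4 of the 8 genes and lowered 3 in 253J, raised 2 and lowered 2 in J82, raised 2 and lowered 1 in RT112, and raised 3 and lowered 4 in TCCSUP. Of the 8 genes, 1 in 253J and 3 in RT112 had no counts and could not be called there. Calls are at an adjusted p under 0.05 (edgeR's quasi-likelihood test, Benjamini-Hochberg over all tested genes). Over all tested genes, 28.8% were higher and 22.4% lower in 253J, 24% and 18.5% in J82, 27.4% and 20.2% in RT112, and 32% and 22.1% in TCCSUP, so a call by itself is common in these data. CDKN2C was called lower in all 4 lines, although its call in J82 was lost in 15 of 25 alternatives. CDKN1A rose in 3, CDKN1C and CDKN2D in 3 each, and CDKN2A fell in both lines in which it was counted. The median log2 fold change of all tested genes with counts lay between 0.13 in J82 and 0.23 in TCCSUP.

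CDKN1A encodes p21, the best known CIP/KIP inhibitor of CDK2. It had 2440 and 1953 counts in 253J controls against 5189 and 5721 with CM-1758. J82 held 344 and 214 counts in control and 2143 and 4256 with CM-1758. TCCSUP held 923 and 1092 in control and 4695 and 4755 with CM-1758. Every treated library of these 3 lines was above its controls. RT112 was the exception in raw counts, with 1837 and 1922 in control and 1841 and 2036 with CM-1758. In CPM its treated libraries, at 72.0 and 77.7, were above its controls, at 60.1 and 65.1, but the change did not pass. In normalized levels CDKN1A went from 81.6 ± 9.58 to 199 ± 8.83 CPM in 253J (SD, n = 2 per group here and throughout) and from 10.4 ± 3.74 to 110 ± 47.6 CPM in J82. It went from 62.6 ± 3.59 to 74.8 ± 3.97 CPM in RT112 and from 39.2 ± 3.74 to 181 ± 8.03 CPM in TCCSUP.

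These levels correspond to a rise of 2.44-fold in 253J (log2 fold change 1.29, SE 0.25, adjusted p = 0.000472), 10.6-fold in J82 (3.41, SE 0.27, adjusted p = 3.08e-07) and 4.63-fold in TCCSUP (2.21, SE 0.26, adjusted p = 5.03e-06). In RT112 the log2 fold change was 0.26 with a 95% interval of -0.26 to 0.78 (adjusted p = 0.411). The lowest control level was in J82, where the change was largest. The 2 treated J82 libraries, at 76.7 and 144 CPM, lay on either side of 100, a wider gap than in any other group for this gene.

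RefSeq (GRCh38.p14) gives CDKN1A a start on chromosome 6, and the 250 bases before it are shown because this promoter is rich in GC boxes, the letters GGGCGG that Sp1 family factors are known to bind. The window is 76.4% GC, and GC boxes on either strand (GGGCGG or CCGCCC, overlaps counted) are in capitals.
CDKN1A, chr6:36678464-36678713, plus strand: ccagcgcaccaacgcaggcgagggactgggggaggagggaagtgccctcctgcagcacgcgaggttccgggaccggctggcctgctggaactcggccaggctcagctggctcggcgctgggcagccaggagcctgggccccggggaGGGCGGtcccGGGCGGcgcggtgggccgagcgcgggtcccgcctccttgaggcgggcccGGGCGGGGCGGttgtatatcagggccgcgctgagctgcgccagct
It holds 4 matches, and 13.9% of 35116 such windows over all genes hold 3 or more. At least 1 match is in 42.6% of all windows and in 8 of the 10 windows listed for 7 of the 8 genes. CDKN1C has no entry there.

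CDKN1B encodes p27, which is held down mainly by degradation of the protein in dividing cells. Its counts were 2316 and 1757 in 253J controls and 799 and 685 with CM-1758. TCCSUP had 1415 and 1503 in control and 946 and 941 with CM-1758. In both lines the groups did not overlap. The level fell by 1.47 on the log2 scale in 253J, from 75.6 ± 11.7 to 27.4 ± 6.04 CPM (SE 0.20, adjusted p = 1.79e-05). In TCCSUP it fell by 0.65, from 56.8 ± 1.10 to 36.2 ± 1.14 CPM (SE 0.19, adjusted p = 0.0105), a call lost when libraries were scaled by library size alone (log2 fold change -0.34, adjusted p = 0.123) or when the first treated TCCSUP library was left out (-0.62, adjusted p = 0.0621).

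CDKN1B went the other way from CDKN1A in 253J and TCCSUP. In J82, 1966 and 2929 control counts stood against 1801 and 2409 with CM-1758, and in RT112 2278 and 1949 stood against 1859 and 1707. Neither difference passed the test. The log2 fold change was -0.31 in J82 (95% interval -0.72 to 0.09, adjusted p = 0.208) and -0.03 in RT112 (-0.43 to 0.38, adjusted p = 0.954). Without the first J82 control library the J82 value was -0.55 and passed (adjusted p = 0.0398).

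CDKN1C encodes p57, the imprinted member of the CIP/KIP family, and was the least counted of the 3. J82 had 14 and 20 counts in control and 161 and 230 with CM-1758. RT112 had 96 and 68 in control and 170 and 150 with CM-1758. 253J had 62 and 36 in control and 82 and 98 with CM-1758. In these 3 lines every treated library was above the controls. TCCSUP started far higher, at 484 and 414 counts, and had 346 and 299 with CM-1758.

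The rise of CDKN1C in J82 was 10.7-fold, from 0.629 ± 0.138 to 6.78 ± 1.43 CPM (log2 fold change 3.42, SE 0.32, adjusted p = 1.17e-06). In RT112 it was 2.27-fold, from 2.72 ± 0.590 to 6.19 ± 0.659 CPM (1.18, SE 0.27, adjusted p = 0.00225). The 253J value was 1.80-fold (0.85, SE 0.29, adjusted p = 0.0217). This call was lost with DESeq2 on 253J alone (adjusted p = 0.151) and without the third control library (log2 fold change 0.54, adjusted p = 0.204), the first treated library (adjusted p = 0.059) or the third treated library (adjusted p = 0.0738). In TCCSUP the log2 fold change was -0.50 (95% interval -1.03 to 0.03, adjusted p = 0.103), from 17.5 ± 2.33 to 12.4 ± 0.839 CPM, and it passed with edgeR on TCCSUP alone (adjusted p = 0.0135) and with DESeq2 on TCCSUP alone (adjusted p = 0.0458).

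CDKN2A encodes p16INK4a and, from another start and reading frame, p14ARF, the inhibitor of MDM2. The table has a single row for the gene, so the transcripts cannot be told apart here. J82 had 3392 and 4821 counts in control and 1819 and 2053 with CM-1758. TCCSUP had 2157 and 2144 in control and 415 and 414 with CM-1758. 253J and RT112 had 0 counts in each of their 4 libraries. The level fell by 1.18 on the log2 scale in J82, from 152 ± 32.8 to 67.3 ± 3.09 CPM (SE 0.16, adjusted p = 0.000158), and by 2.40 in TCCSUP, from 83.7 ± 2.31 to 15.9 ± 0.535 CPM (SE 0.17, adjusted p = 7.98e-07). CM-1758 thus left no counted CDKN2A transcript in the lines that had none. A count of 0 allows up to 3 counts, which is 0.0981 to 0.119 CPM in these libraries, for counting error only.

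CDKN2B encodes p15INK4b, which TGF-beta induces in epithelial cells. J82 had 3160 and 3537 counts in control and 2220 and 3296 with CM-1758. TCCSUP had 2506 and 2314 in control and 1082 and 1017 with CM-1758. In 253J the counts were 13 and 23 in control and 54 and 50 with CM-1758, and RT112 had 0 in its 4 libraries. The level fell by 1.22 on the log2 scale in TCCSUP, from 93.9 ± 7.47 to 40.3 ± 0.342 CPM (SE 0.18, adjusted p = 0.000113). In J82 both treated libraries, at 79.5 and 112 CPM, were below the controls at 120 and 129 CPM, but the log2 fold change of -0.38 did not pass (95% interval -0.77 to 0.01, adjusted p = 0.110). Without the third treated J82 library the value was -0.65 and passed (adjusted p = 0.0227).

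In 253J CDKN2B rose 2.82-fold, from 0.676 ± 0.290 to 1.91 ± 0.319 CPM (log2 fold change 1.50, SE 0.32, adjusted p = 0.00148), and did not pass with DESeq2 on 253J alone (adjusted p = 0.0564). CDKN2B-AS1, which is transcribed over CDKN2B from the opposite strand, held 935 and 996 counts in 253J controls and 738 and 825 with CM-1758. The strand setting of the counting is not given in the sources used here, so at 13 to 54 counts the reads of CDKN2B and of its antisense partner cannot be told apart. Of the antisense and overlapping transcripts of the 8 genes, 3 were tested. KCNQ1OT1, which runs over the imprinted region of CDKN1C, rose in J82 (log2 fold change 0.77, adjusted p = 0.0454), and DINOL, beside CDKN1A, rose in TCCSUP from 0 to 0.269 CPM (adjusted p = 0.0161). None of the 3 passed in 253J or RT112, and CDKN2B-AS1 passed in no line.

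The RefSeq windows before the starts of CDKN2A and CDKN2B are shown because these neighbours fell together in TCCSUP. Both genes lie on the minus strand of chromosome 9 and the windows are written 5′ to 3′ on it, with GC boxes in capitals. The window with the higher coordinates belongs to the upstream start of CDKN2A, that of p14ARF.
CDKN2A, chr9:21974858-21975107, minus strand: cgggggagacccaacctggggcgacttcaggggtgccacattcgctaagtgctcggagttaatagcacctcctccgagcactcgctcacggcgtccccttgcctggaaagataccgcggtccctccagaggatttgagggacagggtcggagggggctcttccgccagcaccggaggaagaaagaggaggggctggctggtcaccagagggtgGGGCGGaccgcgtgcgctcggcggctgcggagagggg
CDKN2A, chr9:21995325-21995574, minus strand: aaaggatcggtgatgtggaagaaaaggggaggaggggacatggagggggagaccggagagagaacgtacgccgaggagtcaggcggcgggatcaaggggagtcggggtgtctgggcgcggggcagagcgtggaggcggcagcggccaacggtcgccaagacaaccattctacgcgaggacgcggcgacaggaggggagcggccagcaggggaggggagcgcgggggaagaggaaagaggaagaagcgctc
CDKN2B, chr9:22009306-22009555, minus strand: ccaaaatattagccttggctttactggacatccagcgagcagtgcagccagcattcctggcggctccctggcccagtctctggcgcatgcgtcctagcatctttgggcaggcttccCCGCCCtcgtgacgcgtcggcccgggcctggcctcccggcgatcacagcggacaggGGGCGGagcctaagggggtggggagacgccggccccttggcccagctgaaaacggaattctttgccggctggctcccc
The CDKN2A windows hold 1 and 0 GC boxes and the CDKN2B window holds 2. A match is a description of these letters, not of a bound site. CDKN2C, described next, has 3 starts on the plus strand of chromosome 1 with 0, 5 and 1 GC boxes. The middle window, at 77.2% GC, is shown because it holds the most GC boxes of the 10 windows. Which of the 3 starts these cells used was not measured.
CDKN2C, chr1:50968456-50968705, plus strand: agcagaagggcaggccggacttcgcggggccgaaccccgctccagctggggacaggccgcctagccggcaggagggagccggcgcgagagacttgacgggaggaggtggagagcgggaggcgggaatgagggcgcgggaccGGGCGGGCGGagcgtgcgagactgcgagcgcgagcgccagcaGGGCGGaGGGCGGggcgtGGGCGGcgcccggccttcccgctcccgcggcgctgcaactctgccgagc

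CDKN2C, which encodes p18INK4c, was lower in each line. Its counts were 1179 and 953 in 253J controls against 290 and 272 with CM-1758, and 528 and 495 in RT112 controls against 214 and 174. TCCSUP had 1064 and 1101 in control and 586 and 563 with CM-1758. In these 3 lines no treated library reached a control. J82 had 1077 and 1407 in control and 879 and 1089 with CM-1758, and its groups overlapped in raw counts but not in CPM, at 40.9 and 51.2 against 31.5 and 36.9.

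The fall of CDKN2C was 1.94 on the log2 scale in 253J, from 39.6 ± 4.38 to 10.3 ± 1.63 CPM (SE 0.17, adjusted p = 3.53e-07), and 1.18 in RT112, from 17.0 ± 0.345 to 7.51 ± 1.23 CPM (SE 0.17, adjusted p = 5.94e-05). In TCCSUP it was 0.93, from 42.1 ± 0.0378 to 22.0 ± 0.154 CPM (SE 0.16, adjusted p = 0.000212). The J82 value was -0.43 (SE 0.16, adjusted p = 0.0411), close to the threshold, and the call was lost in 15 of 25 alternatives. With RLE size factors it was -0.34 (adjusted p = 0.101), with library size alone -0.28 (adjusted p = 0.145), with 10 counts in every library -0.32 (adjusted p = 0.0958), without a filter -0.43 (adjusted p = 0.066) and with DESeq2 over all lines -0.34 (adjusted p = 0.0987). With edgeR on J82 alone it was -0.42 (adjusted p = 0.155), with DESeq2 on J82 alone -0.40 (adjusted p = 0.257), without the third control library -0.26 (adjusted p = 0.299) and without the first treated library -0.24 (adjusted p = 0.373). It was also lost without any 1 of 6 libraries of RT112 controls or TCCSUP (adjusted p = 0.0564 to 0.0585).

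CDKN2D, which encodes p19INK4d, moved opposite to CDKN2C. 253J had 129 and 90 counts in control and 328 and 407 with CM-1758. RT112 had 224 and 193 in control and 619 and 520 with CM-1758. TCCSUP had 89 and 103 in control and 190 and 147 with CM-1758, and J82 had 190 and 178 in control and 256 and 278 with CM-1758. In all 4 lines both treated libraries were above both controls. The rise was 3.29-fold in 253J, from 4.06 ± 0.866 to 13.4 ± 0.525 CPM (log2 fold change 1.72, SE 0.21, adjusted p = 7.09e-06), and 3.18-fold in RT112, from 6.93 ± 0.554 to 22.0 ± 3.10 CPM (1.67, SE 0.20, adjusted p = 1.07e-05).

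In TCCSUP CDKN2D rose 1.73-fold, from 3.73 ± 0.298 to 6.45 ± 0.939 CPM (0.79, SE 0.21, adjusted p = 0.00565). That call was lost without the first treated TCCSUP library (0.62, adjusted p = 0.0611). The J82 value, 0.44 (SE 0.20, adjusted p = 0.0926), missed the threshold with TMM and passed with RLE size factors (adjusted p = 0.0441), library size alone (adjusted p = 0.0261), a filter of 10 counts in every library (adjusted p = 0.0205) and DESeq2 with all lines (adjusted p = 0.0304). RT112, where CDKN1A did not pass, had the highest treated level of CDKN2D of any line.
The window before the CDKN2D start is shown as that of the INK4 gene that rose, with GC boxes in capitals.
CDKN2D, chr19:10568980-10569229, minus strand: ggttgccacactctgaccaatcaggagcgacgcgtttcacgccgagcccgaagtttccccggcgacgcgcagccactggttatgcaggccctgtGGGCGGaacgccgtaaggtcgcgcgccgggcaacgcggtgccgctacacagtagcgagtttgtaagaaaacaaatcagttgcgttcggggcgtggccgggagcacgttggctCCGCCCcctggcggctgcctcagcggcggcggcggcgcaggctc
It holds 2 GC boxes, as do the windows of CDKN2B and MTAP.

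**Figure D1:**
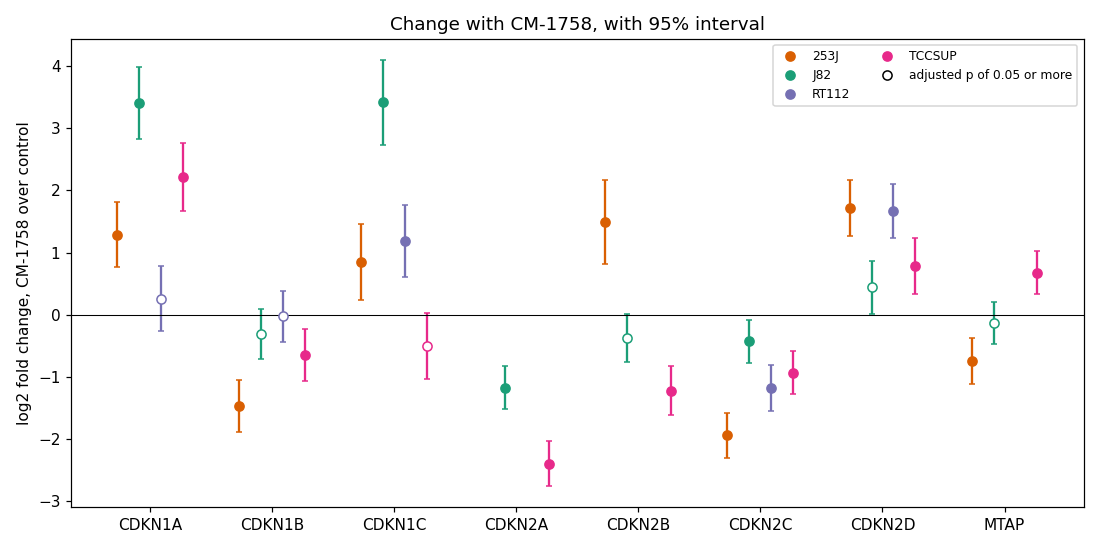
Log2 fold change of CM-1758 over control (y axis) for each gene (x axis) and cell line (colour), with its 95% interval from edgeR's quasi-likelihood fit. Filled points passed at an adjusted p under 0.05 and open points did not, and a line without counts has no point. CDKN2C lies below 0 in each line, whereas MTAP and CDKN2B lie on both sides.

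MTAP encodes methylthioadenosine phosphorylase, the first enzyme of methionine salvage from the by-product of polyamine synthesis. 253J had 401 and 413 counts in control and 199 and 302 with CM-1758. J82 had 4256 and 5839 in control and 4566 and 5229 with CM-1758. TCCSUP had 2138 and 2450 in control and 3916 and 3528 with CM-1758, and RT112 had 0 in its 4 libraries. MTAP fell by 0.74 on the log2 scale in 253J, from 15.2 ± 0.919 to 9.04 ± 1.63 CPM (SE 0.17, adjusted p = 0.00293), and rose 1.60-fold in TCCSUP, from 89.2 ± 6.51 to 143 ± 5.49 CPM (0.68, SE 0.16, adjusted p = 0.00317). In J82 the groups overlapped and the log2 fold change was -0.14 (95% interval -0.47 to 0.20, adjusted p = 0.539). In TCCSUP MTAP therefore rose while its neighbours CDKN2A and CDKN2B fell.

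The effect of CM-1758 differed between cell lines for all 8 genes (F test of the interaction of line and treatment, edgeR), at adjusted p-values of 1.87e-05 for CDKN1C, 3.21e-05 for CDKN1A, 0.000374 for CDKN2B, 0.000561 for CDKN2C, 0.0019 for MTAP, 0.00233 for CDKN1B, 0.00287 for CDKN2D and 0.00695 for CDKN2A. Over all tested genes 51.9% passed this test. It counts a line without counts as a change of 0, so CDKN2A was also tested between J82 and TCCSUP alone (adjusted p = 0.00308, with 22.2% of all genes passing), and CDKN2B and MTAP over 253J, J82 and TCCSUP (adjusted p = 0.00022 and 0.0011, with 42.6% passing). The fall of CDKN2A was thus larger in TCCSUP than in J82 beyond the spread of the libraries, by 1.22 on the log2 scale. These narrower tests were chosen after the values were seen.

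The widest differences between control lines were those of CDKN2A, CDKN2B and MTAP. Of 47 pairs of gene and control lines with counts, 34 passed. J82 and 253J differed in 6 of 8 genes (53.1% of all tested genes), RT112 and 253J in 4 of 7 (54.3%), TCCSUP and 253J in 5 of 8 (53.1%), RT112 and J82 in 6 of 8 (52.1%), TCCSUP and J82 in 6 of 8 (48%), and TCCSUP and RT112 in 7 of 8 (51.5%). In 10 of the 34, 1 line had no counts. These were 3 of the 7 calls for TCCSUP and RT112, 3 of the 6 for RT112 and J82, 2 of the 4 for RT112 and 253J, and 1 each for J82 and TCCSUP against 253J. They belong to CDKN2A, CDKN2B and MTAP, which passed the filter through the lines that counted them. These 10 calls therefore do not show how the 8 genes compare with all tested genes.

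MTAP had the order J82, TCCSUP, 253J, RT112 in control, and each neighbour in it differed. J82 was above TCCSUP by 2.10-fold (adjusted p = 0.000111), and TCCSUP was above 253J by 5.88-fold (adjusted p = 4.1e-08). 253J was at least 149-fold above RT112, from the floor of 3 counts per library. CDKN2A was 1.82-fold higher in J82 than in TCCSUP (adjusted p = 0.000961), and in TCCSUP at least 729-fold higher than in 253J and at least 824-fold higher than in RT112. For CDKN2B, J82 and TCCSUP did not differ beyond their spread (adjusted p = 0.0833, and 0.0453 without the third treated J82 library), TCCSUP was 139-fold above 253J (adjusted p = 1.43e-10), and 253J was at least 6.65-fold above RT112.

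For CDKN1A, 253J and RT112 were highest and did not differ from each other (adjusted p = 0.207). TCCSUP was 1.60-fold below RT112 (adjusted p = 0.0323), a call lost when any of the 4 libraries compared was left out (adjusted p = 0.0673 to 0.165). J82 was lowest, 3.76-fold below TCCSUP (adjusted p = 2.43e-05). CDKN1B was the most even gene, with control means of 56.8 to 90.6 CPM, and of its 6 pairs only TCCSUP against J82 passed (1.60-fold lower, adjusted p = 0.00866). That call was lost without the third J82 control library (adjusted p = 0.133) or the first TCCSUP control library (adjusted p = 0.0547). Without the first J82 control library, J82 also differed from 253J (adjusted p = 0.0488) and RT112 (adjusted p = 0.0191), and without either J82 control library TCCSUP differed from 253J (adjusted p = 0.0457 and 0.0458). With library size alone TCCSUP was lower than 253J and RT112 as well (adjusted p = 0.0439 and 0.0346).

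CDKN1C was highest in TCCSUP, 6.42-fold above RT112 (adjusted p = 7.34e-07). RT112 and 253J did not differ beyond their spread (adjusted p = 0.102), but did without the second 253J control library (log2 difference 0.98, adjusted p = 0.033) or with library size alone (0.71, adjusted p = 0.0399), and 253J was 2.87-fold above J82 (adjusted p = 0.00138). CDKN2C was lowest in RT112, 2.33-fold below 253J (adjusted p = 1.32e-05), and the other 3 lines did not differ from one another. CDKN2D was higher in RT112 and J82, which did not differ, than in 253J and TCCSUP, which did not differ either. The difference of J82 from TCCSUP was 1.83-fold (adjusted p = 0.003). The differences of J82 and RT112 from 253J, 1.68-fold and 1.71-fold, were lost without the third 253J control library (adjusted p = 0.0876 and 0.0746).

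Levels of different genes can be compared only per length, here as CPM per kilobase of merged exons in GENCODE v29, an annotation other than the one behind the counts. MTAP was left out, since its merged exons include long alternative transcripts. In control the most abundant of the 7 inhibitor transcripts was CDKN1A in 253J and CDKN2A in J82 and TCCSUP, in both libraries of each of these groups. In RT112 controls CDKN1B led in the first library, at 28.0 CPM per kilobase against 23.9 for CDKN1A, and CDKN1A in the second, at 26.0 against 24.9. With CM-1758 it was CDKN1A in both libraries of all 4 lines, in RT112 at 28.7 and 30.9 against 27.4 and 24.5 for CDKN1B. In the first treated RT112 library this order rests on the exon lengths used. There CDKN1A was at 72.0 CPM and CDKN1B at 72.7 before division by length. CDKN1A was 42.4% of the sum of the 7 in 253J controls and 76.5% with CM-1758, 3.06% and 32.3% in J82, 39.9% and 39.3% in RT112, and 14.1% and 61.2% in TCCSUP.

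The sum of the 7 was 76.7 CPM per kilobase in 253J controls and 104 with CM-1758, 136 and 136 in J82, 62.5 and 75.9 in RT112, and 111 and 118 in TCCSUP. In J82 and TCCSUP the make-up turned over: CDKN2A went from 35.4% to 15.6% of the sum in J82 and from 23.9% to 4.26% in TCCSUP. In RT112 the share of CDKN2D went from 7.38% to 19.3%. No test was run on these sums and shares.

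**Figure D2:**
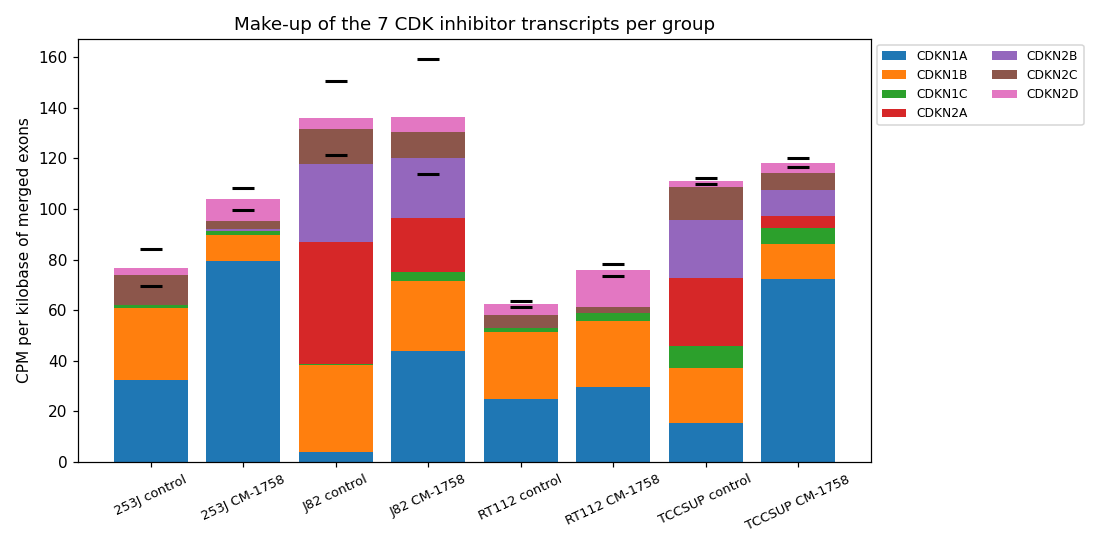
Mean level of the 7 CDK inhibitor transcripts per group in CPM per kilobase of merged exons (y axis), stacked by gene, for control and CM-1758 in each cell line (x axis). Short black lines are the sums of the 2 libraries of each group. The CDKN1A part grows with CM-1758 in 253J, J82 and TCCSUP, and the J82 sums overlap between control and CM-1758.

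RT112 had next to no counts over a run of 9p21 genes. The order of the genes, taken from RefSeq (GRCh38.p14) with no coordinates since the counts name GRCh37, runs from KLHL9 through the interferon alpha genes IFNA6 to IFNA1, then MIR31HG, IFNE, MTAP, CDKN2A-DT, CDKN2A, CDKN2B-AS1, CDKN2B, DMRTA1 and LINC01239 to ELAVL2. KLHL9, on one edge, had 2362 to 3239 counts in the RT112 libraries, and ELAVL2, on the other, 531 to 715. The 14 genes between them had 2 counts in all 4 RT112 libraries together, both on DMRTA1 in the second control library. In J82 and in TCCSUP 8 of these 14 genes had at least 10 counts in total, and in 253J 7 did.

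MIR31HG, a long noncoding RNA, had 643 to 854 counts in J82, 455 to 982 in 253J and 367 to 742 in TCCSUP. DMRTA1, a transcription factor gene at the other end of the run, had 380 to 851 in J82, 524 to 1162 in 253J and 516 to 743 in TCCSUP. The 5 interferon alpha genes between KLHL9 and MIR31HG and CDKN2A-DT had at most 4 counts in any library of any line, so they mark no edge. Outside the run, PLIN2, a lipid droplet gene, had 4, 0, 2 and 0 counts in RT112 while its neighbours HAUS6 and DENND4C were above 100 CPM, so a gene listed near 0 in RT112 was not particular to the run. DNA was not measured, and absent gene copies and silent genes cannot be told apart from these counts.

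253J gave another pattern. Of the 8 genes of this run with at least 10 counts in J82, CDKN2A was the one at 0 in the libraries of 253J. Its neighbours were counted: CDKN2B-AS1 at 36.0 CPM in 253J controls against 12.3 in J82, MIR31HG at 34.5 against 27.5, and DMRTA1 at 41.3 against 16.8. MTAP and CDKN2B, on either side of CDKN2A, were at 15.2 and 0.676 CPM in 253J controls, against 187 and 124 in J82. HACD4, outside the run on the far side of KLHL9, had 0, 0, 0 and 2 counts in 253J and 0, 0, 0 and 5 in RT112. In J82 it had 569 to 831 and in TCCSUP 126 to 338, so CDKN2A was not the only listed gene near 0 in 253J. With CM-1758, MIR31HG, IFNE, DMRTA1 and LINC01239 fell in 253J, by 1.04, 1.38, 1.03 and 1.52 on the log2 scale (adjusted p = 0.000141, 0.00444, 0.000461 and 0.00958). MIR31HG also fell in TCCSUP, by 0.97 (adjusted p = 0.000271). IFNE, DMRTA1 and LINC01239 were at -0.58, -0.44 and -0.98 there and did not pass. In J82 DMRTA1 rose by 0.64 (adjusted p = 0.016), and the others did not pass.

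Of the 22 tested neighbours of the 9p21 genes, 3 rose and 7 fell in 253J, 10 and 3 in J82, 0 and 3 in RT112, and 7 and 4 in TCCSUP. In RT112, 4 of the 22 had no counts and could not be called, and others, such as PLIN2 and DMRTA1, had next to none. Over all tested genes, 28.8% rose and 22.4% fell in 253J, 24% and 18.5% in J82, 27.4% and 20.2% in RT112, and 32% and 22.1% in TCCSUP. TUSC1 fell in all 4 lines, by 0.73 to 2.09 on the log2 scale. ACER2, an alkaline ceramidase gene, rose in J82 (1.94) and TCCSUP (2.63). SLC24A2 rose from 0 counts in the same 2 lines, to 0.264 and 0.518 CPM. PLIN2 fell in 253J and J82, by 0.61 and 1.29.

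The targets and partners of the inhibitors were read from lists of the pathway. Over all tested genes, 28.8% rose and 22.4% fell in 253J, and 24% and 18.5% in J82. In RT112 these shares were 27.4% and 20.2%, and in TCCSUP 32% and 22.1%. The counts of each list below are to be read beside these shares, and no list was tested as a set. Among 14 tested G1 cyclins and kinases, 6 rose and 5 fell in 253J, 5 and 3 in J82, 1 and 5 in RT112, and 4 and 4 in TCCSUP. CDK4, the kinase that INK4 proteins bind, fell in all 4 lines, from 150 to 109 CPM in 253J, 219 to 93.9 in J82, 82.6 to 30.0 in RT112 and 108 to 63.3 in TCCSUP (adjusted p = 0.0307, 5.15e-05, 1.05e-05 and 0.0015). CDK6, its partner kinase, fell in 253J (log2 fold change -0.51) and TCCSUP (-0.86), with values of 0.13 in J82 and -0.0011 in RT112 that did not pass.

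CCND1, which encodes cyclin D1, rose in J82 by 0.85 and fell in TCCSUP by 1.52 on the log2 scale, with -0.36 in 253J and -0.42 in RT112 that did not pass. CCND2 (cyclin D2) fell in 253J from 162 to 81.6 CPM, and had 0 counts in the controls of the other lines against 1.29 to 3.86 CPM with CM-1758. CDC25A, the phosphatase that activates CDK2, fell in 253J, J82 and RT112 by 1.14 to 2.14. CCNC (cyclin C) rose in 253J by 1.53 and in J82 by 0.76.

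Among the 13 genes of the RB family and E2F, 2 rose and 8 fell in 253J, 1 and 5 in J82, 1 and 7 in RT112, and 3 and 5 in TCCSUP. RB1 passed in no line, with log2 fold changes of 0.01 to 0.21. E2F1 fell in 253J, J82 and RT112 by 0.99 to 2.38 and was at 0.04 in TCCSUP (adjusted p = 0.895). E2F8, a repressor of the family, fell in all 4 lines, and TFDP2 and E2F6 rose in 2 and 3 lines, by at most 0.99.

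Of 20 genes of S and M phase listed as targets of the inhibitors, 0 rose and 20 fell in 253J, 0 and 17 in J82, 0 and 13 in RT112, and 3 and 12 in TCCSUP. Their median log2 fold change was -2.27, -1.01, -0.93 and -1.70. In RT112, 7 of the 20 did not pass, among them CCNB1 (-0.51, adjusted p = 0.0905), PLK1 (-0.34, adjusted p = 0.314) and MKI67 (-0.18, adjusted p = 0.73), genes of mitosis and of dividing cells. The same 3 genes fell by 2.35, 2.91 and 2.84 on the log2 scale in 253J and by 2.66, 3.13 and 2.33 in TCCSUP. MYBL2 and FOXM1, transcription factors of late cell cycle genes, fell in all 4 lines, MYBL2 by 1.20 to 2.66 and FOXM1 by 0.82 to 3.21. In TCCSUP the 3 that rose were CDC6, MCM2 and MCM6, genes of replication licensing, by 0.48 to 0.62. All 6 were named after their values were seen.

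KIP proteins are removed by ubiquitin ligases. Among 16 genes of this turnover 3 rose and 8 fell in 253J, 1 and 5 in J82, 1 and 8 in RT112, and 2 and 10 in TCCSUP. SKP2, the F-box protein that recognises p27, fell in 253J from 67.3 to 39.3 CPM, in RT112 from 101 to 38.9 and in TCCSUP from 125 to 77.3, and in J82 went from 298 to 230 without passing (adjusted p = 0.0733). CKS1B, its cofactor for p27, fell in all 4 lines by 1.00 to 2.39 on the log2 scale, as did RBX1 by 0.70 to 1.53. RNF123, a subunit of another p27 ligase, rose in 253J (1.13) and J82 (0.89).

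MDM2, the ubiquitin ligase that p14ARF inhibits, fell in 253J from 729 to 277 CPM (log2 fold change -1.40, adjusted p = 1.61e-06) and rose in RT112 from 291 to 435 CPM (0.58, adjusted p = 0.00363). It passed in neither J82 (-0.27, adjusted p = 0.151) nor TCCSUP (-0.22, adjusted p = 0.2).

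Of 24 transcription factors known from the CDKN1A promoter, 8 rose and 9 fell in 253J, 6 and 8 in J82, 10 and 5 in RT112, and 6 and 5 in TCCSUP. EGR1 rose in 253J from 1.60 to 17.9 CPM and in RT112 from 0.299 to 13.9, and did not pass in J82 (adjusted p = 0.683) or TCCSUP (adjusted p = 0.386). CEBPA rose in J82 from 0.354 to 3.41 CPM and in TCCSUP from 0.156 to 6.44. TFAP4, a repressor of CDKN1A, fell in 253J, J82 and RT112 by 1.46 to 2.60 on the log2 scale, with -0.66 in TCCSUP that did not pass (adjusted p = 0.0647).

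Polycomb proteins hold the INK4 locus silent. Of 21 Polycomb and other INK4 regulators 5 rose and 6 fell in 253J, 5 and 2 in J82, 5 and 3 in RT112, and 8 and 3 in TCCSUP. As parts of the list, most of these counts were near the shares over all tested genes, so they say little about the list. CBX7, the Polycomb subunit best known for CDKN2A, rose in all 4 lines by 0.63 to 2.47, and ID1, whose product opposes ETS activation of CDKN2A, rose in 253J, J82 and TCCSUP by 0.74 to 2.52. KDM2B fell in all 4 by 0.39 to 1.09, and PHC2 fell in 253J and J82 by 0.46 and 0.51.

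Of 23 genes of methionine salvage and polyamines, the pathway MTAP serves, 8 rose and 7 fell in 253J, 5 and 9 in J82, 4 and 7 in RT112, and 7 and 8 in TCCSUP. APIP and ADI1, enzymes downstream of MTAP, fell in all 4 lines, APIP by 1.05 to 1.54 and ADI1 by 1.04 to 3.12 on the log2 scale. SAT1 and ODC1, of polyamine breakdown and synthesis, rose in all 4, SAT1 by 1.34 to 2.09 and ODC1 by 1.08 to 2.36. MAT2A, which makes the methyl donor S-adenosylmethionine and is studied as a weak point of cells without MTAP, fell in all 4 lines by 0.78 to 1.07. PRMT5, the methyltransferase that the substrate of MTAP inhibits, fell in 253J by 0.71 and in J82 by 0.42 and was at 0.02 in RT112 and -0.01 in TCCSUP, which did not pass. The falls of APIP, ADI1 and MAT2A and the rises of SAT1 and ODC1 were therefore also seen in RT112, the line without MTAP counts.

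**Figure D3:**
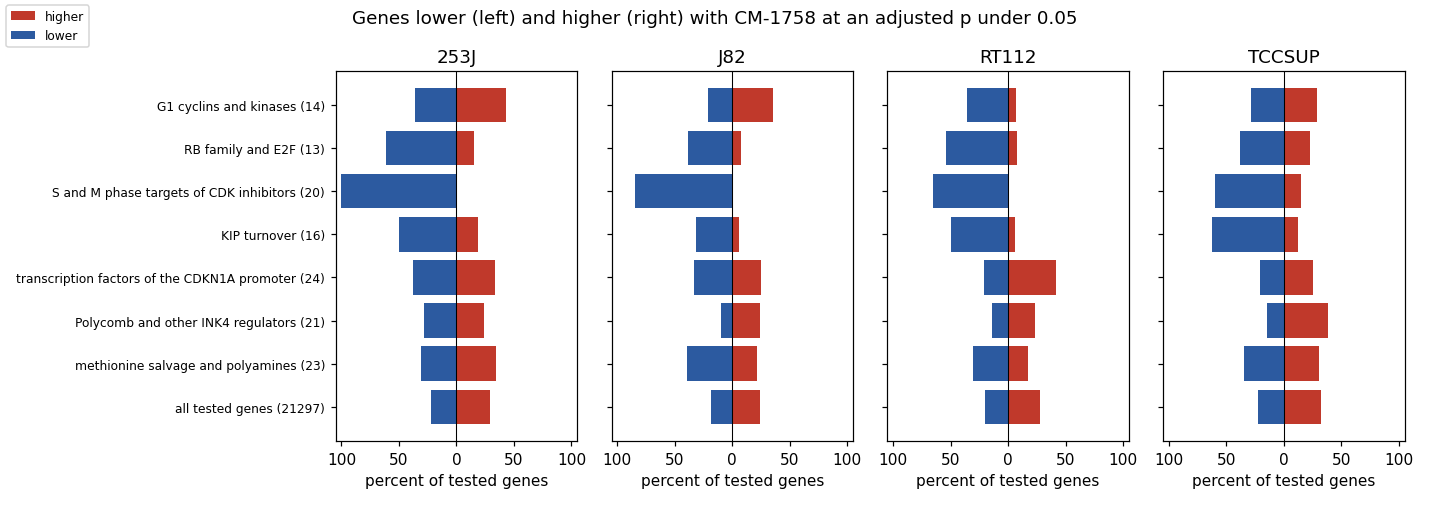
Percent of the tested genes of each pathway list (number tested in parentheses) that were lower (blue, to the left) or higher (red, to the right) with CM-1758 at an adjusted p under 0.05, in each cell line, with all tested genes in the bottom bar. The S and M phase list has no gene higher in 253J, J82 or RT112.

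Genes with like symbols outside the families were kept apart: of 5, 3 rose and 2 fell in 253J, 1 and 1 in J82, 1 and 1 in RT112, and 1 and 2 in TCCSUP. CDK2AP1 fell in all 4 lines by 0.89 to 2.88, CDKN3, a phosphatase, fell in 253J and TCCSUP, CDKN2AIP rose in 3 lines and CDK2AP2 in 2.

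The gene whose level was most like that of a member over the 16 libraries (Pearson's r of log2 CPM, a description over libraries that share lines and depth) was FILIP1L for CDKN2A at 0.993, INSYN2B for CDKN2B at 0.986 and PLIN2 for MTAP at 0.986. It was NUP35 for CDKN1B at 0.961, FPGT for CDKN1A at 0.953, C18orf61 for CDKN2D at 0.952, CCT5 for CDKN2C at 0.949 and APOE for CDKN1C at 0.931. Next came TRPM8 and TATDN3 for CDKN1A, ASF1B and S100A13 for CDKN1B, ZMAT4 and PTENP1 for CDKN1C, and RPL29P19 and ZNF366 for CDKN2A. For the others these were MICA-AS1 and CDKL2 (CDKN2B), NISCH and BTN3A2 (CDKN2C), RASD1 and PLEKHM3 (CDKN2D), and CPLANE1 and ARPIN (MTAP). CDKN2A was at 0 in 8 of the 16 libraries and MTAP in 4. PLIN2 lies on the same chromosome arm as MTAP, and is near 0 in RT112 and low in 253J as MTAP is.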

How the data were processed

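Total RNA of 16 cultures was depleted of ribosomal RNA and sequenced. The authors deposited 1 table of raw counts, whole numbers of reads per gene symbol, without normalization. The submitters' processing notes name HISAT2, StringTie and GRCh37, with no role, version or order. The counter, its strand setting and its handling of reads shared by genes are not given in the sources used here. Every column matched a sample by title. Values of 2 (18814) outnumbered values of 1 (13099), and whether both ends of a read pair were counted is not given either.

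Low counts were removed by filterByExpr with the 8 groups as design (21297 genes left), and the rest was normalized by TMM and fitted with edgeR 4.0.16 (glmQLFit, glmQLFTest, R 4.3.3). All 16 libraries shared 1 fit with 8 residual degrees of freedom and a common biological coefficient of variation of 0.153. P-values were adjusted by Benjamini-Hochberg per contrast and called under 0.05. An SE was taken as the size of the log2 change over the root of its F statistic, and CPM use TMM-normalized library sizes. The study used DESeq2, run here as an alternative (1.42.0). The fit was tested on simulated counts. With 2 libraries per group the depth of 22506431 to 32537104 counts limits the values of well counted genes less than the spread between libraries does. Members near 0, such as CDKN2B at 13 and 23 counts in 253J controls, are limited by depth as well.

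The members, gene lists and tests were chosen with earlier results of these data known. The text names all 8 members and, from each list, at most the 2 highest and the 2 lowest genes by mean log2 change over the lines, among those passing alike in at least 2 lines with replicates that do not overlap. It also names MDM2, CDK4, CDK6, CCND1, RB1, SKP2, PRMT5, MAT2A, 9p21 genes around the run without RT112 counts and the 3 genes most like each member. A gene that the rule names and the list built on its pathway are not reported here. Markers and others named beyond this were chosen after their values were seen. A list of 7 small noncoding RNA genes (1 higher and 1 lower in 253J, 0 and 0 in J82, 0 and 1 in RT112, 2 and 0 in TCCSUP, with RPPH1 higher in 253J and TCCSUP) served an alternative in which they were left out. Promoter windows are the 250 bases before each start in RefSeq's table for GRCh38.p14, of which 6 of the 10 are printed.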

Additional observations from a re-analysis of the deposited data

Results flagged for a closer look

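Each of the 8 genes drew attention because its response to CM-1758 differed between cell lines in the test of that difference. The adjusted p-values were 3.21e-05 for CDKN1A, 0.00233 for CDKN1B, 1.87e-05 for CDKN1C, 0.00695 for CDKN2A, 0.000374 for CDKN2B, 0.000561 for CDKN2C, 0.00287 for CDKN2D and 0.0019 for MTAP (edgeR's F test of 3 contrasts, 2 libraries per group). CDKN1A rose in 253J, J82 and TCCSUP and did not pass in RT112, where its log2 fold change was 0.26. CDKN1C rose in 253J, J82 and RT112, with -0.50 in TCCSUP that did not pass. CDKN2B and MTAP were called in opposite directions in 253J and TCCSUP, CDKN2B with 1.50 and -1.22 and MTAP with -0.74 and 0.68. CDKN1B, CDKN2C and CDKN2D were called in the same direction wherever they were called and differed in size. For CDKN2A the difference lies between J82 (-1.18) and TCCSUP (-2.40). Over all tested genes 51.9% passed the same test. Groups of 2 libraries are too small for a test of single outlying libraries.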

How the results depend on the processing

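The number of members called with CM-1758 was 7 for 253J, 4 for J82, 3 for RT112 and 7 for TCCSUP. For lack of counts, 1 member in 253J and 3 in RT112 could not be called. Where a call also needed a log2 change beyond 2 in size with adjusted p below 0.01, the number called was 0, 2, 0 and 2. At that limit 20 of the 34 calls between control lines were left. The share of all tested genes at that limit was not taken, so these counts cannot be set against it. A filter of 10 counts in every library, which removes CDKN2A, CDKN2B and MTAP by construction, gave 4 in TCCSUP, 5 members with an interaction and 19 calls between control lines. RLE size factors, library size alone, no filter, DESeq2, edgeR on each line alone and leaving out the 7 small noncoding RNA genes moved no such count by more than 1.5 times. With each library left out in turn the counts were 6 to 7 in 253J, 3 to 5 in J82, 3 in RT112, 5 to 7 in TCCSUP, 8 for the interaction and 32 to 37 between control lines, where the lone library of an arm is assumed to vary like the others.

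Values that changed sign were all uncalled. MTAP in J82 was 0.0134 with library size alone and -0.32 to 0.0755 with 1 library left out. CDKN1B in RT112 was 0.0502 with RLE, 0.12 with library size alone, 0.10 with 10 counts in every library, 0.03 with DESeq2 over all lines and -0.11 to 0.0573 with 1 library left out. Between control lines, CDKN1B was 0.0244 for RT112 over 253J with library size alone. With 1 library left out, CDKN1B ran from -0.26 to 0.0643 for RT112 over 253J and from -0.0171 to 0.50 for J82 over 253J. CDKN2C ran from -0.0227 to 0.21 for TCCSUP over 253J and from -0.28 to 0.0417 for TCCSUP over J82, and CDKN2D from -0.33 to 0.12 for TCCSUP over 253J and from -0.0644 to 0.10 for RT112 over J82. The cause was not tested. Library size alone moved the median log2 fold change of all genes by 0.14 (J82) to 0.31 (TCCSUP).

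Libraries that share a replicate number correlated in their deviations from the group means at 0.22 for J82 and at 0.02 to 0.05 for the other lines, each from at most 2 shared numbers, so the libraries were not treated as pairs. Whether the J82 libraries were paired was not settled. With the replicate block 6, 3 and 8 members were called in J82, RT112 and TCCSUP. CDKN1B (-0.30, adjusted p = 0.0344) and CDKN2B (-0.40, adjusted p = 0.0311) in J82 and CDKN1C in TCCSUP (-0.50, adjusted p = 0.0482) then passed. In J82, RT112 and TCCSUP the block changed no other call of a member. The 253J groups share only replicate 3, so their block values rest on the lone library of each arm with that number. CDKN2B in 253J was 0.93 in that fit.

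With 2 libraries per group the error of a member rests on spread shared over genes and lines. Members near 0 (CDKN2B in 253J, CDKN1C in J82) rest on 13 to 54 and 14 to 230 counts. RNA counts give no protein, and the INK4 and CIP/KIP proteins are also set by turnover, which was not measured.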
